A study of Vitis vinifera with 54 samples.

Results

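Mature flesh of *Vitis vinifera* L. Chardonnay grown in the zone labelled ZHYS was compared with mature flesh of 5 other ecological zones, HJZ, CC, XG, XLS and HSB. The members are the 3 libraries M-ZHYS, set against the 15 libraries M-HJZ, M-CC, M-XG, M-XLS and M-HSB, out of 54 libraries from 6 zones and 3 stages of berry growth. They are defined by their zone and stage labels, not by a cut on measured values. The comparison itself was chosen with earlier results of these data known. All mature fruit was picked at 120 days (the maturity period, M), and fruit at 40 days (the enlargement period, E) and 80 days (the color transition period, V) was used to place the differences in time. All groups are flesh of 1 cultivar with skin and seeds cut away, with no treatment named in the labels. Each library is a biological replicate of 15 fruits. The labels name no separate sites within a zone, so the site, its vines and its management cannot be told apart from the zone, and p-values measure the spread between fruit pools within zones.

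During ripening the flesh of a grape berry imports sugar and water into large vacuoles, softens as pectin in its walls is broken down, and accumulates thaumatin-like proteins and chitinases. Water crosses the plasma membrane and the tonoplast through aquaporins, of which the PIP group sits mainly in the plasma membrane and the TIP group mainly in the tonoplast. Flavonoids are made from phenylalanine through chalcone synthase, and MYB, bHLH and WD40 proteins act together to switch the genes of that route on or off.

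Values are TPM, which is a level per transcript length, rescaled so that the median gene is equal between libraries. The factors lay between 0.835 and 1.13 over the 18 mature libraries and between 1.01 and 1.03 in M-ZHYS. Every mature library correlated best with its own group (r across genes at least 0.991 within groups and at most 0.988 between them). TPM keeps no sequencing depth, so the precision of a low value is known only from the spread of its replicates. Transcripts of the ripe flesh list (7 genes, among them GRIP4, a grape ripening-induced gene, and the thaumatin-like gene TL3) summed to between 86200 and 103900 rescaled TPM in M-ZHYS, against 66720 to 133200 in the other zones. Marker sums of tissue that dissection should remove lay between 299 and 369 (3 skin genes) and between 22.2 and 27.8 (4 seed and flavan-3-ol genes) in M-ZHYS, against 113 to 727 and 25.1 to 105 in the other zones. Of the skin sum, 325 in M-ZHYS came from 1 gene, LOC100853472, annotated as a MYBA gene. UFGT and FAOMT, also in the skin list, were near 0 in M-ZHYS (means 0.248 and 0.215) and in the others (0.971 and 0.6). Both belong to the anthocyanin route, and the series holds no skin library of this cultivar. Their low levels therefore cannot show how far skin was removed. Of the seed and flavan-3-ol sum, 14.8 in M-ZHYS came from MYBPA1, itself a lower call described below. That list holds only MYBPA1, ANR, LAR1 and LAR2, so its sum does not by itself measure seed tissue. In bulk flesh, fewer cells of a type and less RNA per cell cannot be told apart.

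At maturity more genes were higher than lower in ZHYS. Of 23486 genes tested, 271 were called higher (1.15%) and 96 lower (0.409%) in M-ZHYS than in the mean of the 5 other zones, where a call needs a limma adjusted p below 0.05 and a difference above 1 on the log2(rescaled TPM + 1) scale. On that scale the differences of weakly expressed genes are compressed. The median gene differed by -0.01 and the median call by 1.21 (higher) or 1.23 (lower) in size. In 184 of the higher calls all 3 M-ZHYS libraries lay above all 15 others, and in 55 of the lower calls they lay below them, while 4.14% and 3.29% of all genes tested were so placed. Among the calls, 171 of the higher and 54 of the lower genes had a mean of at least 10 rescaled TPM in ZHYS or over the other zones. With each zone mean counted as 1 value (1 against 5), limma called 0 genes at an adjusted p below 0.05, while 1370 genes, 141 of the higher and 33 of the lower calls among them, had an unadjusted p below 0.05. In the fit over libraries the unadjusted p gave the same 271 and 96 calls, so the limit on the difference set them. Under the same rule, with its own zone set against the rest, HSB had 705 higher and 190 lower calls and HJZ 30 and 127.

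**Figure D1:**
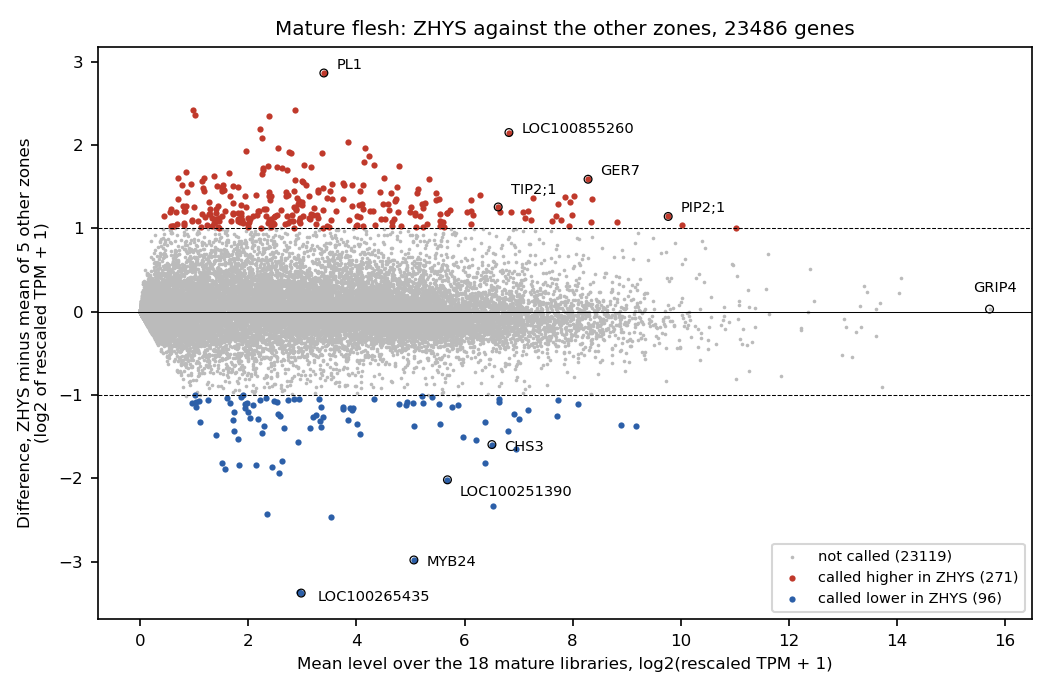
Difference between M-ZHYS and the mean of the 5 other zones (log2 of rescaled TPM + 1, vertical) against the mean level over the 18 mature libraries (same scale, horizontal) for 23486 genes, each point 1 gene. Red points are the 271 genes called higher and blue points the 96 called lower, the dashed lines mark a difference of 1, and GRIP4, the most abundant gene, lies near 0.

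Several aquaporin transcripts were higher in ZHYS. Of 11 aquaporin genes tested, 5 were called higher and 0 lower, where 1.15% and 0.409% of all genes tested were so called. Their median difference was 0.98, against -0.01 for all genes tested. All 11 differences were above 0, as were those of 11049 of all 23486 genes. Those of LOC100252631 (annotated as TIP4) and PIP1;2 were close to 0 (0.003 and 0.04, limma adjusted p = 0.96 and 0.60). The tonoplast genes led. TIP1;1 had 30.5, 26.7 and 27.8 rescaled TPM in M-ZHYS, against 5.14 to 22.1 (median 9.60) in the 15 other libraries. All 3 ZHYS libraries were above every other library, and HJZ was the nearest zone at 21.7. The log2 difference of TIP1;1 was 1.36 ± 0.06 (SE, adjusted p = 1.1e-09).

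TIP1;2 had 156, 141 and 152 rescaled TPM in M-ZHYS, against 21.9 to 132 (median 66.9) in the others. TIP2;1, a delta-type tonoplast aquaporin, had 195, 185 and 230 rescaled TPM in M-ZHYS, against 59.9 to 144 (median 82.7). Neither gene overlapped between ZHYS and the other zones, although the CC libraries came close for TIP1;2 (mean 127). Their log2 differences were 1.34 ± 0.06 (adjusted p = 5.02e-10) and 1.26 ± 0.08 (adjusted p = 1.72e-08).

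At the plasma membrane, PIP2;1 was the most abundant aquaporin of M-ZHYS, with 1866, 1575 and 1634 rescaled TPM in M-ZHYS, against 296 to 1525 (median 831) in the other zones. Its log2 difference was 1.14 ± 0.06 (adjusted p = 1.64e-09), with no overlap and with CC nearest (mean 1452). Without zone XG, where it averaged 315, the difference was 0.82 and no longer above 1. The related gene annotated as PIP2 was called higher at a low level, with 5.62, 6.47 and 4.67 rescaled TPM in M-ZHYS, against 0.546 to 4.04. PIP1;3, with 1662, 1525 and 1512 rescaled TPM in M-ZHYS against 646 to 1464, lay above every other library without reaching the limit on the difference (0.63 ± 0.04, adjusted p = 4.02e-08). For PIP2;2 (XLS and HJZ) and PIP2;3 (XLS) other zones had means above that of ZHYS, and PIP1;2 averaged 174 in M-ZHYS and 176 in the other zones. Members of such families are alike in sequence, and how reads that match several copies were counted is not given in the sources used here.

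**Figure D2:**
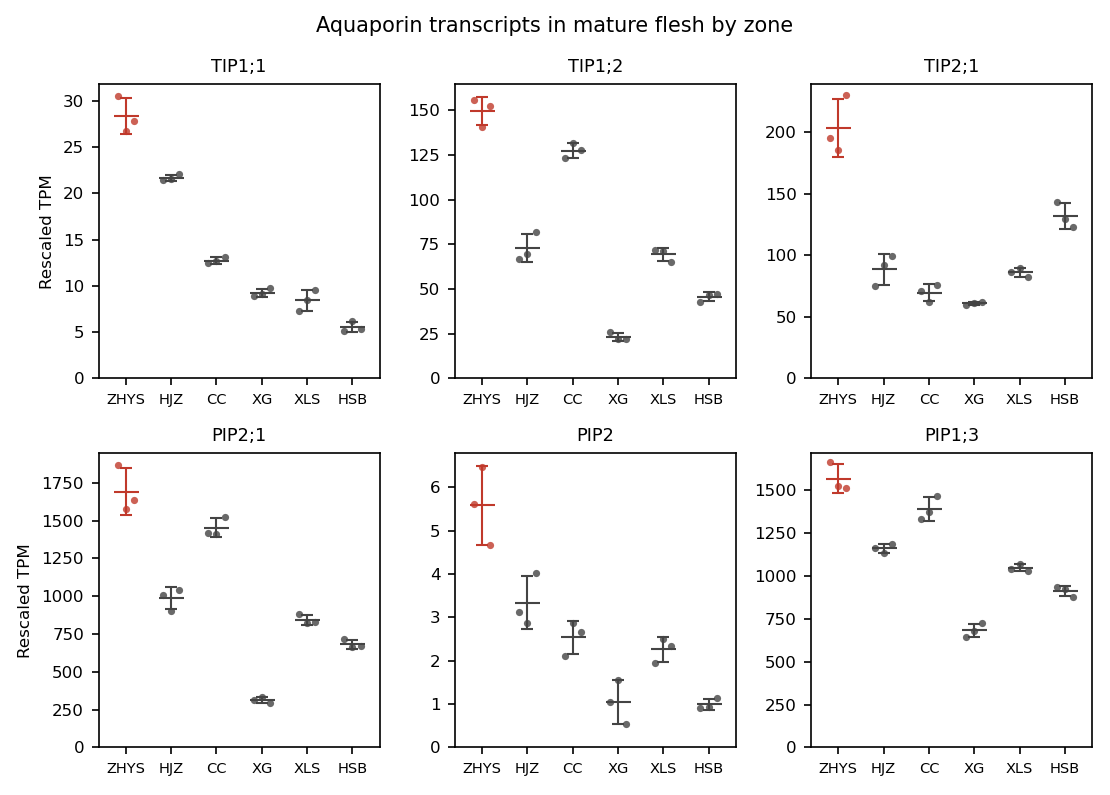
Rescaled TPM of 6 aquaporin genes in the 18 mature libraries by zone, ZHYS in red at the left, points being libraries and bars the mean ± SD of 3 replicates. In each panel the 3 ZHYS libraries lie above the 15 others, by least for PIP1;3, where the highest of the others reached 1464.

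The largest rise was that of PL1, a pectate lyase gene whose enzyme class cleaves wall pectin. It had 62.1, 44.1 and 57.7 rescaled TPM in M-ZHYS, against 2.45 to 14.6 (median 6.12) in the other libraries. Every ZHYS library was above the highest of the other 15, which came from CC. Its mean was 6.99 times that of the other zones and the log2 difference 2.86 ± 0.11 (adjusted p = 1.09e-10). Of the 3 cell wall genes tested, VPRP1 was also called higher, from a low level (2.19 ± 0.41 in M-ZHYS, SD, n = 3, and 0.427 in the others), while GRIP28, which carries the name PMEI in the reference table, averaged 4236 in M-ZHYS and 5033 in the others with a difference of -0.22. Over all genes tested, 1.15% were called higher.

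Among 19 sugar transporter genes tested, 1 was called higher and 0 lower (median difference -0.01), against 1.15% and 0.409% of all genes tested. The call was LOC100232961, annotated as the hexose transporter HT2. Its level was 17.5, 16.4 and 16.5 rescaled TPM in M-ZHYS, against 1.65 to 16.1 (median 7.12) in the other zones. The ranges did not overlap, but XLS (mean 15.9) differed from ZHYS by less than the limit and did not pass the pairwise test (adjusted p = 0.725). The difference from the mean of the other zones was 1.16 ± 0.10 (adjusted p = 3.17e-07), and 0.82 without XG. Neither the 4 sugar enzyme genes nor the 4 organic acid genes held a call.

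Defence-related transcripts moved unevenly. Of 18 pathogenesis-related genes tested, 4 were called higher and 0 lower, where 1.15% and 0.409% of all genes tested were so called. There were 9 differences above and 9 below 0, with a median of 0.13. LOC100232865 encodes a polygalacturonase-inhibiting protein (PGIP), a wall protein that blocks fungal pectin enzymes. It had 214, 205 and 283 rescaled TPM in M-ZHYS, against 36.1 to 202 (median 147), so that no library overlapped. Its log2 difference was 1.19 ± 0.10 (adjusted p = 4.19e-07), and it was 0.90 without XG and 0.97 without XLS, the zones with the lowest levels.

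CHI4C, a class IV chitinase, had 298, 384 and 429 rescaled TPM in M-ZHYS, against 66.2 to 581 (median 150) in the others. Here the ranges overlapped, because HSB averaged 472, above ZHYS. The log2 difference was 1.09 ± 0.14 (adjusted p = 2.84e-05) and dropped below the limit without M-ZHYS replicate 3 (0.98), without HJZ (0.96) or without XLS (0.82). The other calls were PR10.4 (3.32 ± 1.48 in M-ZHYS, SD, n = 3, and 0.584 in the others) and the beta-1,3-glucanase gene G1 (6.70 ± 0.62 and 2.78), both at low levels. The abundant members TL1 (21950 and 17530) and CHI4D (7882 and 9089) were not called, nor were PR10.2 and PR10.3.

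The germin-like, cold and drought, MLO and redox lists gave 1 higher call each, of 6, 7, 7 and 14 genes tested. Over all genes tested, 1.15% were called higher. GER7, a germin-like gene, had 603, 607 and 1302 rescaled TPM in M-ZHYS, against 88.5 to 781 (median 231). CC (mean 693) overlapped with it, and 1 of the ZHYS libraries was far above the other two. RD22-B, named for a dehydration-responsive gene of Arabidopsis, had 242, 444 and 205 rescaled TPM in M-ZHYS, against 47.5 to 253 (median 132).

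The difference of GER7 was 1.59 ± 0.23 (adjusted p = 6.64e-05) and that of RD22-B 1.09 ± 0.30 (adjusted p = 0.00931). The RD22-B call rested on 1 library, since without M-ZHYS replicate 2 the difference was 0.76 (adjusted p = 0.0991). MLO7, of a family known in barley for powdery mildew susceptibility, averaged 11.8 ± 0.99 in M-ZHYS (SD, n = 3) and 7.99 in the other zones. HSB was higher than ZHYS at 21.7 and XG was level with it at 11.8, while HJZ, CC and XLS averaged 2.06, 2.19 and 2.15. In the redox list the peroxidase gene LOC100261249 (POD1) was the 1 call of 14 genes, at 5.82 ± 0.53 in M-ZHYS and 1.60 in the others.

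**Figure D3:**
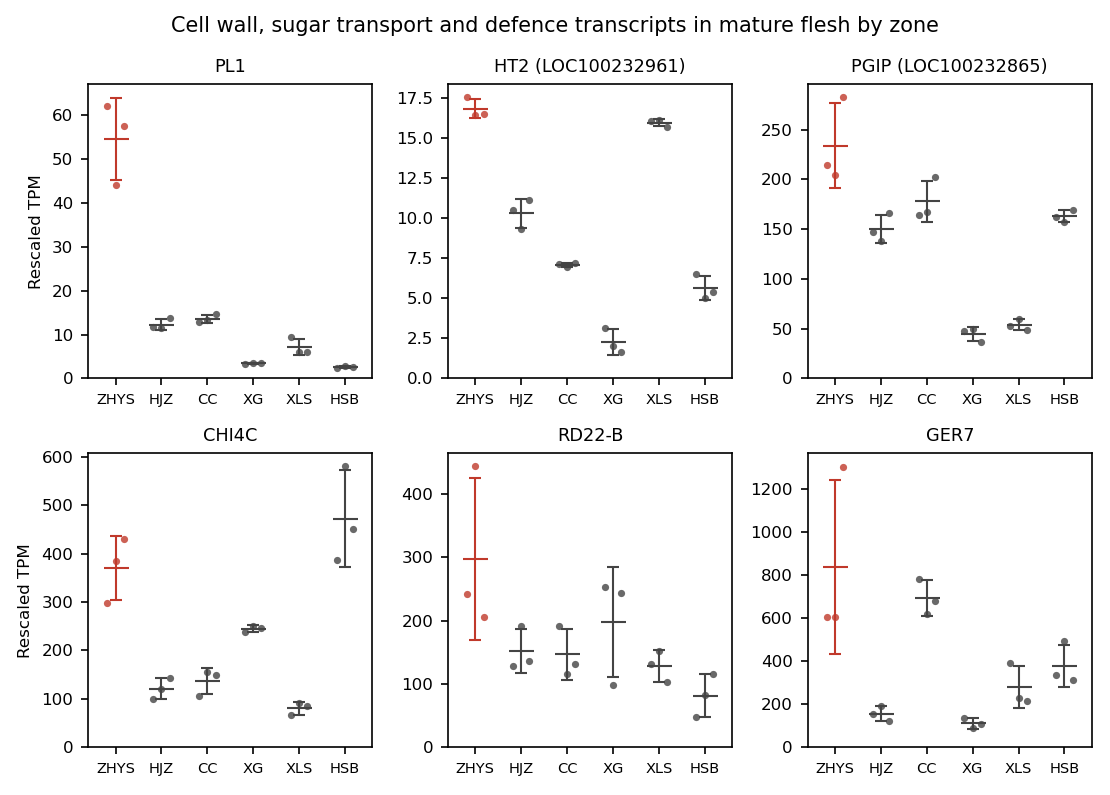
Rescaled TPM of PL1, HT2, PGIP, CHI4C, RD22-B and GER7 in the 18 mature libraries by zone, ZHYS in red at the left, points being libraries and bars the mean ± SD of 3 replicates. PL1 separates ZHYS from all zones, HT2 is level with XLS, and CHI4C is highest in HSB.

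In the flavonoid route the calls were lower in ZHYS. Of 20 phenylpropanoid and flavonoid enzyme genes tested, 2 were called lower and 0 higher, where 0.409% and 1.15% of all genes tested were so called. Below 0 were 16 differences, as were 12437 of 23486 over all genes tested, and the median was -0.33. Only 10 of the 20 had a mean of at least 10 rescaled TPM, and 2 lay below all other libraries. The differences of LDOX and LAR1 were close to 0 (-0.03 and -0.02, limma adjusted p = 0.78 and 0.90). Chalcone synthase makes the first compound of the route. Of its genes, CHS3 had 30.9, 44.5 and 31.8 rescaled TPM in M-ZHYS, against 49.4 to 217 (median 106). The 3 ZHYS libraries were the lowest of the 18. CHS3 differed by -1.59 ± 0.12 (adjusted p = 7.76e-08). The other chalcone synthase genes of the list were not called. LOC100263443 (CHS1) differed by 0.01 (limma adjusted p = 0.966). LOC100232843 (CHS2) differed by -0.93, but HJZ (26.0) and XLS (24.4) lay below ZHYS (27.2).

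DFR, which encodes dihydroflavonol 4-reductase, was also lowest in all ZHYS libraries, with 77.3, 78.7 and 72.1 rescaled TPM against 105 to 196 (median 156). Its difference of -0.98 ± 0.06 (adjusted p = 9.76e-09) fell just short of the limit. The flavonol synthase gene FLS1 was called lower (-1.39 ± 0.15, adjusted p = 3.14e-06) at 1.85 ± 0.63 in M-ZHYS (SD, n = 3) and 9.27 in the other zones. It overlapped with XLS, which averaged 1.34, and without XG the difference was -0.99. F3H (21.9 in M-ZHYS and 37.2 in the others, but 19.5 in XG) and the F3'H gene (30.8 and 50.9) had differences of -0.67 and -0.65, while LDOX, the step after DFR, stood at 85.1 and 90.3. The 4CL gene of the entry steps lay the other way (35.3 and 20.7, a difference of 0.83).

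Among the regulators tested, MYB24 had the largest fall. It had 6.07, 3.88 and 5.23 rescaled TPM in M-ZHYS, against 22.8 to 87.5 (median 62.0) in the 15 other libraries. The nearest zones, HSB and CC, averaged 24.5 and 26.2, and HJZ, XG and XLS averaged 74.8, 67.3 and 65.1. The log2 difference was -2.98 ± 0.10 (adjusted p = 4.87e-11). In Arabidopsis, MYB24 acts in stamen development downstream of jasmonate.

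MYBPA1, an activator of proanthocyanidin genes in grapevine, was called lower, with 14.7, 16.2 and 13.6 rescaled TPM in M-ZHYS against 16.5 to 93.6 (median 27.5). All 3 libraries were below the other 15, but by little for CC and HSB (means 17.8 and 17.7), against which the pairwise tests did not pass (adjusted p = 0.126 and 0.132). Its difference of -1.12 ± 0.09 (adjusted p = 3.13e-07) was -0.81 without XLS and -0.94 without HJZ. MYBPA1 is also the call in the list of seed and flavan-3-ol markers, whose summed level is given above, and the part of seed tissue in the result was not tested. ANR, which makes flavan-3-ol units, stood at 3.79 in M-ZHYS and 6.38 in the others, with a difference of -0.58.

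Of the 17 regulator genes tested, MYB24 and MYBPA1 were the 2 calls, and both were lower (median of the list -0.02). Over all genes tested, 0.409% were called lower. Below the limit on the difference, MYB4A, of a subgroup of MYB repressors of phenylpropanoid genes, lay above all other libraries (98.2 ± 3.5 in M-ZHYS, SD, n = 3, and 52.0 in the others, a difference of 0.94). WDR1, a WD40 protein gene, was placed in the same way (28.1 ± 1.5 and 16.3, a difference of 0.77). MYB14, an activator of stilbene synthase genes, averaged 76.4 in M-ZHYS and 163 in the others, with a difference of -0.82 and with XLS below ZHYS.

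**Figure D4:**
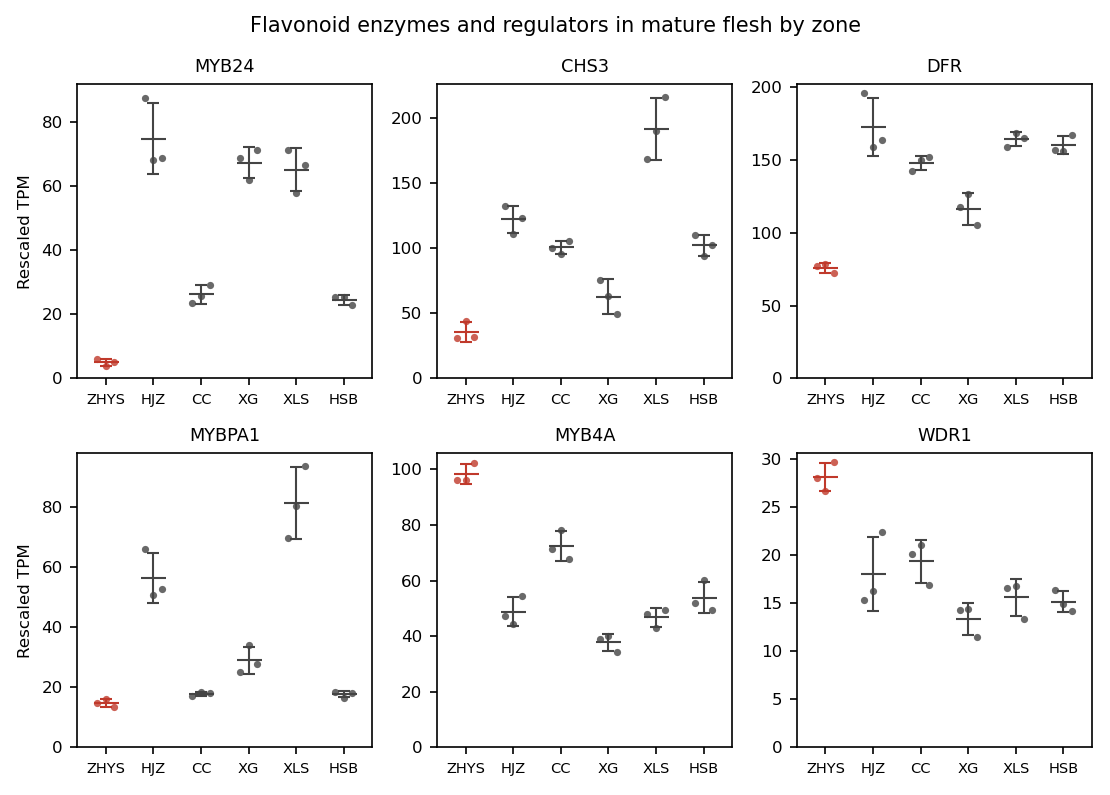
Rescaled TPM of MYB24, CHS3, DFR, MYBPA1, MYB4A and WDR1 in the 18 mature libraries by zone, ZHYS in red at the left, points being libraries and bars the mean ± SD of 3 replicates. ZHYS is lowest for MYB24, CHS3, DFR and MYBPA1 and highest for MYB4A and WDR1, with CC and HSB close to it for MYBPA1.

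The other lists held few calls. MADS5, of the flower and fruit MADS-box genes (12 tested), carries AGL11 among its synonyms and was called higher. It had 72.8, 76.6 and 211 rescaled TPM in M-ZHYS, against 17.9 to 129 (median 43.0). The call came from 1 library, and without M-ZHYS replicate 3 the difference of 1.22 dropped to 0.72 (adjusted p = 0.0573). Stilbene, isoflavone reductase-like, aroma, carotenoid and abscisic acid, heat, ethylene, gibberellin and brassinosteroid, CBL and CIPK, light, nitrogen and WRKY genes gave 0 calls in either direction by limma, with the unadjusted p as well. Several of these lists are short, with 3 heat, 3 WRKY, 4 stilbene, 6 nitrogen and 7 light genes tested. They hold only genes found by symbol or synonym and do not stand for whole families. The 6 gibberellin and brassinosteroid genes all had differences above 0 (median 0.41), as did 11049 of 23486 genes tested. Only 2 of them had a mean of at least 10 rescaled TPM. LOC100265167 (GA3ox1), LOC100232996 (GA20ox3) and LOC100232937 (VVGAI1) had limma adjusted p of 0.218, 0.647 and 0.627. The largest difference was that of BR6OX1, a gene of brassinosteroid synthesis (19.4, 16.4 and 19.3 rescaled TPM in M-ZHYS, against 5.84 to 18.4, a difference of 0.88). Glutamine synthetase (GS) was below all other libraries in M-ZHYS, at 434 ± 12 (SD, n = 3) and 548 in the other zones, with a difference of -0.33. The 11 grape ripening-induced genes had a median of 0.03, and GRIP4 averaged 55270 in M-ZHYS and 55260 in the others. Outside the lists, CYP716A15, of a cytochrome P450 group that oxidises triterpenes, was called higher (13.7, 19.0 and 19.5 rescaled TPM in M-ZHYS, against 2.81 to 14.1), a gene chosen after its values were seen.

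Most of the largest differences belonged to genes that the reference table names only by locus, as it does most genes. Of the 25133 genes listed, 286 carry a symbol of their own. After PL1, the largest rises with no overlap and a mean of at least 10 rescaled TPM were those of LOC100257534 (22.1, 38.7 and 26.7 rescaled TPM in M-ZHYS, against at most 7.91) and LOC100262607 (15.8, 25.5 and 17.7, against at most 4.66). Their differences were 2.42 ± 0.13 (adjusted p = 2.94e-09) and 2.35 ± 0.11 (adjusted p = 1.44e-09). LOC100855260 was the most abundant of these rises, with 450, 356 and 371 rescaled TPM in M-ZHYS, against 18.4 to 294 (median 125). Its nearest zone was CC (mean 289), and XG had the lowest mean (20.2). The 8 other genes of this group were LOC100268054, LOC100265151, LOC100255578, LOC100254636, LOC100260401, LOC100248978, LOC109121426 and LOC100263626, with differences of at least 1.90, of which LOC100248978 spread most relative to its mean within ZHYS (21.0, 12.2 and 27.5 rescaled TPM).

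The steadiest fall was that of LOC100251390. It had 14.9, 17.4 and 13.1 rescaled TPM in M-ZHYS, against 53.3 to 86.9 (median 61.7). The 5 other zones lay close together, with means of 59.6, 62.7, 77.9, 62.3 and 59.6 in HJZ, CC, XG, XLS and HSB, and ZHYS stood well below them all. Its difference was -2.02 ± 0.08 (adjusted p = 1.85e-10), and with zone means as the unit the adjusted p was 0.0547. LOC100252362 (23.0 ± 2.8 in M-ZHYS, SD, n = 3, and 131 in the others) and LOC100247678 (1.80 ± 0.31 and 16.1) differed by -2.34 and -2.46.

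LOC100265435 and LOC109121661 had the largest falls of all calls (-3.37 ± 0.70 and -3.36 ± 0.68, adjusted p = 0.0013 and 0.00116). LOC109121661 was listed at 0, 0 and 0.357 rescaled TPM in M-ZHYS, and from 1.71 to 130 (median 8.88) in the others, and LOC100265435 at 0.188, 0.187 and 0 in M-ZHYS, and from 1.37 to 134 (median 8.54). The values of the other zones spread widely. Together with LOC100260218 these genes are neighbours among the tested genes, by the gene order of the assembly ASM3070453v1. Neighbouring copies could share reads, so the 3 may not be separate measurements. In that order of tested genes, 34 of 355 calls stood in 15 runs of neighbours called in the same direction, 4 of them runs of 3 genes. Untested genes between neighbours were skipped. No expected number of runs was computed, so the count does not test clustering. The remaining falls of the largest 12 with no overlap and a mean of at least 10 rescaled TPM were LOC100244546, LOC100251676, LOC100243458, LOC100257913 and LOC100264996, with differences from -1.81 to -1.43.

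ZHYS stood at unequal distances from the other zones. Set against single zones, M-ZHYS had 407 higher and 86 lower calls against HJZ, 307 and 199 against CC, 796 and 384 against XG, 579 and 133 against XLS, and 589 and 708 against HSB. These are 1.73% and 0.366%, 1.31% and 0.847%, 3.39% and 1.64%, 2.47% and 0.566%, and 2.51% and 3.01% of the genes tested. The 5 comparisons share the ZHYS libraries. The split into higher and lower calls depended on the scaling, and with TPM as deposited the counts were 354 and 131 against HJZ, 524 and 109 against CC, 677 and 517 against XG, 492 and 169 against XLS, and 913 and 503 against HSB. PL1, MYB24, CHS3, LOC100257534 and LOC100251390 had adjusted p below 0.05 by limma against each of the 5 zones. The highest was 0.000401 for CHS3 against XG, where the difference was under the limit of 1.

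To see when the differences arose, ZHYS was set against the mean of the other zones at E, V and M in 1 fit over 54 libraries, rescaled together. Of 24648 genes tested, 869 were called higher (3.53%) and 231 lower (0.937%) in ZHYS at E, and 750 (3.04%) and 577 (2.34%) at V. With TPM as deposited the split turned round, with 425 higher and 720 lower calls at E and 513 and 805 at V, and the median gene at E shifted to -0.20. Of the 271 genes called higher at maturity, 36 were also called higher at E and 83 at V, 9 at both and 161 at neither, while 14 were called lower at E and 38 at V. Of the 96 called lower, 6 were also called lower at E and 26 at V, 65 at neither, and 11 were called higher at E. Replicates resembled each other least in V-XLS and V-ZHYS (lowest r across genes 0.947 and 0.976, against at least 0.990 in the other groups), and without XLS the counts at V were 85 and 25.

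Most of the mature differences were not called at E. The change of the zone difference between stages was tested as an interaction. The M minus E change was called in the same direction in 132 of the 271 higher genes and in 68 of the 96 lower genes, where 2.03% and 3.63% of all genes were called higher and lower. The M minus V change was called likewise in 106 and 35 of them (3.04% and 2.55% of all genes). The M values helped to choose these genes, so the counts describe them and test nothing. In the other 5 zones, 81 of the higher calls rose and 42 fell between E and V, and 31 and 16 of the lower calls (6.55% and 7.05% of all genes), and the part of ripening speed in the zone differences was not tested.

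PL1 was below the other zones at E, with 8.35 rescaled TPM in E-ZHYS and 22.0 in the others. It stood at 332 in V-ZHYS and 74.3 in the others, and at 52.5 in M-ZHYS and 7.53 in the others. Its log2 difference was -1.17 at E, 3.12 at V and 2.85 at M. The tonoplast gene TIP2;1 likewise had differences of 0.11, 1.45 and 1.25, TIP1;1 of 0.25, 2.44 and 1.35, and PIP2;1 of 0.43, 1.22 and 1.14. TIP1;2 changed sides, at -0.82, 0.64 and 1.33. PIP2 differed by -0.14 at E, -0.38 at V (-0.54 without XLS) and 1.17 at M. Its HSB means at E and V were 75.6 and 51.1, against 25.0 and 6.73 in ZHYS. No other zone exceeded 26.4 and 9.01 (CC), so its differences before M do not place ZHYS below the other zones in general. PIP2;3 had 1.37, -0.71 and 0.97. HT2 differed by 0.45, 1.58 and 1.14, and PGIP by 0.43, 1.91 and 1.19. At V, HSB was the lowest zone for PL1 (9.84), TIP1;2 (49.3), PIP2;1 (486), HT2 (4.44) and PGIP (79.1), which lowered the mean of the other zones. ZHYS was still above each other zone at V for these genes, except for TIP1;2, which was higher in XG (180, against 165 in ZHYS). CHI4C was higher in ZHYS at all 3 stages (adjusted p = 1.07e-08, 2.36e-08 and 1.69e-05, with differences of 1.44 at V and 1.08 at M).

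The called flavonoid genes were not below the other zones at E, but other genes of the route were. CHS3 stood at 226 in E-ZHYS and 195 in the others, at 33.7 in V-ZHYS with a difference of -0.97, and at 34.3 in M-ZHYS and 112 in the others, with differences of 0.48 at E and -1.60 at M. FLS1 had differences of 0.27, -1.53 and -1.39. DFR was below the other zones at E and M but not at V (-0.65, 0.26 and -0.98), and F3H differed by -0.70, -0.37 and -0.68. MYBPA1 differed by 0.66 at E, -1.02 at V (-0.71 without XLS) and -1.13 at M. MYB24 was near 0 at E in all zones (0.231 in E-ZHYS and 0.158 in the others). It averaged 0.712 in V-ZHYS and 20.8 in the others, and 4.86 in M-ZHYS and 49.7 in the others, and the difference at V was -2.97, or -2.81 without XLS. RD22-B had 0.442, 12.8 and 71.3 rescaled TPM in the V-ZHYS libraries and 184 in the others, and averaged 286 in M-ZHYS and 137 in the others. GER7 spread as widely at V, with 167, 5265 and 955 rescaled TPM in V-ZHYS. In this fit RD22-B, GER7 and MADS5 were not called at M (adjusted p = 0.201, 0.0922 and 0.0809).

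**Figure D5:**
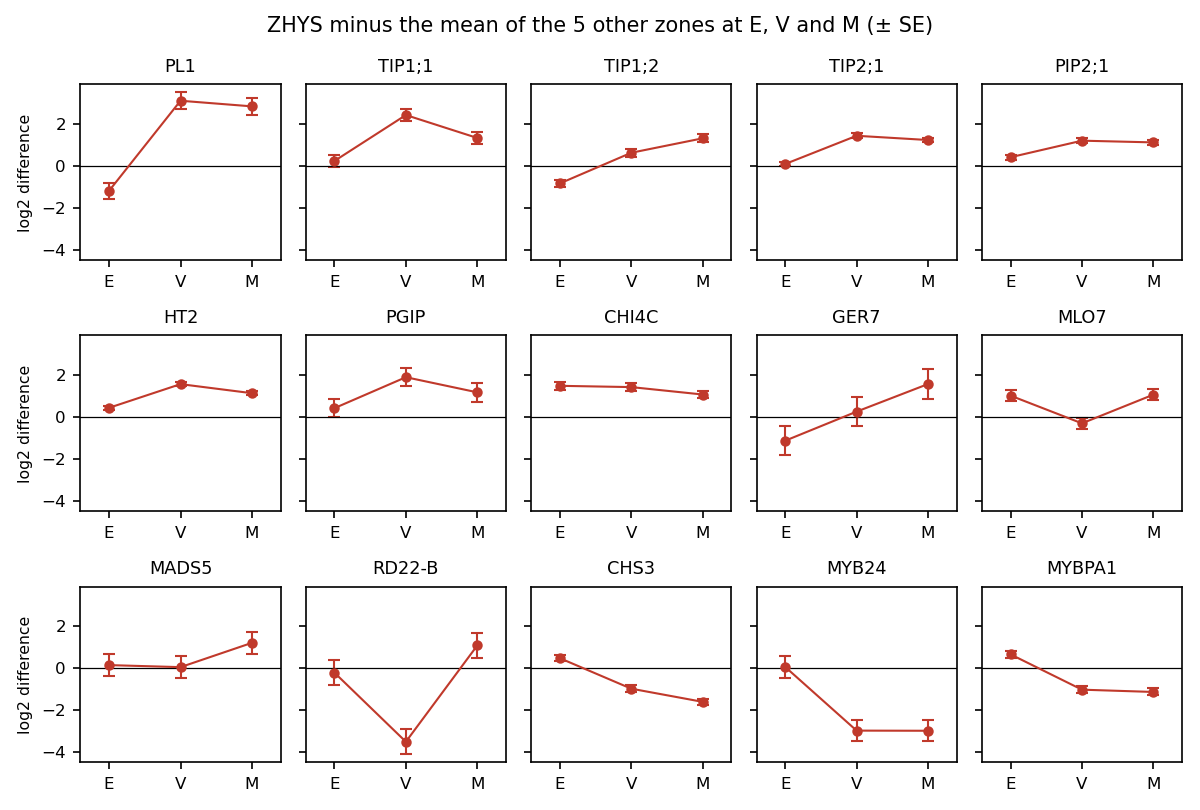
Log2 difference between ZHYS and the mean of the 5 other zones at E, V and M (vertical axis, log2 of rescaled TPM + 1, bars ± SE of the limma fit over 54 libraries) for 15 annotated genes called at maturity. PL1 lies at -1.17, 3.12 and 2.85 and MYB24 at 0.06, -2.97 and -2.98, while CHI4C lies above 1 at each stage.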

How the data were processed

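Total RNA of flesh was sequenced on an Illumina HiSeq-2000. Per the labels and the methods of the study, the authors mapped clean reads with HISAT2 to a grapevine genome linked to Ensembl Genomes, counted fragments per gene with featureCounts and deposited TPM, with replicates kept apart. The assembly name and software versions are not given in the sources used here. The table lists 25133 genes under NCBI Gene numbers, of which 23256 IDs were found in the RefSeq table of ASM3070453v1, used for names and gene order only.

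TPM was divided by median-of-ratios factors (17887 genes above 0 in all 18 mature libraries), taken as log2(x + 1) and tested with limma 3.58.1 in R 4.3.3 (variance trend, 6 group means, Benjamini-Hochberg adjustment). Genes at 0 in all 18 libraries (1647) were left out. The study's own test used read counts, which were not used here. Lists were made from symbols and synonyms, since 286 genes carry a symbol of their own. Stage tests used all 54 libraries and their own factors. TPM shows no depth.

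Named genes are the 12 largest rises and falls with no overlap and a mean of at least 10, up to 3 calls at that level per list, or else the most abundant member, the 5 most abundant genes, and markers. Other list members and pairs were named after their values were seen. The comparison and lists were chosen with earlier results of these data known. Alternatives were TPM as deposited, quantile normalization, a pseudocount of 0.1, a mean of at least 1, all 54 libraries, zone means as the unit, unadjusted p, 2-group fits, the replicate block, and leaving out libraries or zones. Tables were made with Python 3.11.15, pandas 2.3.3 and numpy 2.4.6, and figures with matplotlib 3.10.9.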

Additional observations from a re-analysis of the deposited data

Results flagged for a closer look

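For 14 of 20 annotated genes whose values at all stages are given, the difference between ZHYS and the other zones changed between stages by the interaction test of the 54-library limma fit (adjusted p below 0.05 and a change above 1 on the log2 scale). Over all 24648 genes, the M minus E change was called higher in 2.03% and lower in 3.63%, and the M minus V change in 3.04% and 2.55%. Some of the 20 were added because the text gives their stage values, and other annotated calls, such as HYD2, were left out. The count therefore describes that choice. The changes from E to M were 4.02 ± 0.55 for PL1, 2.15 ± 0.26 for TIP1;2, 1.14 ± 0.16 for TIP2;1, 1.09 ± 0.41 for TIP1;1, 2.70 ± 0.98 for GER7, 1.31 ± 0.23 for PIP2, -3.04 ± 0.72 for MYB24, -2.08 ± 0.22 for CHS3, -1.66 ± 0.29 for FLS1 and -1.79 ± 0.24 for MYBPA1 (SE). The changes from V to M were 4.59 ± 0.85 for RD22-B, 1.37 ± 0.36 for MLO7, 1.55 ± 0.23 for PIP2, 1.68 ± 0.27 for PIP2;3, -1.24 ± 0.16 for DFR and -1.09 ± 0.41 for TIP1;1. These genes were picked with their values at M known, so each change leans on that choice. For PIP2, HSB raised the mean of the other zones at E and V (75.6 and 51.1, against 25.0 and 6.73 in ZHYS). The adjusted p was 0.0357 and 0.0383 for the changes of TIP1;1 and 0.029 for GER7, the weakest of the 16, and at most 0.00255 for the others. The causes were not tested.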

How the results depend on the processing

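The counts of calls against the mean of the other zones (271 higher, 96 lower) were most open to the pseudocount, with 794 and 364 calls at 0.1 (407 and 126 with no overlap), and to the unit, with 0 and 0 calls for zone means. Leaving out 1 library at a time gave 262 to 313 higher and 91 to 101 lower calls, and 184 to 214 and 53 to 64 with no overlap. Without CC, 279 and 84 calls had no overlap, and without XLS 84 lower ones. With TPM as deposited there were 131 lower calls against HJZ, 524 higher and 109 lower against CC, and 913 higher against HSB. At E they were 425 and 720, for M minus E 1502 and 432 (501 and 894 rescaled), and for M minus V 391 lower (629), and 1 of the 11 grape ripening-induced genes was then called higher. The causes were not tested. All 44 named calls kept their direction wherever they were tested (43 with a mean of at least 1, which left out VPRP1), and none passed with zone means as the unit. Other settings that end a named call stand beside it, apart from G1 (0.96), RD22-B (0.90) and HYD2 (0.96), a call not described above, without HSB, and MLO7 without HJZ, CC or XLS (0.83 to 0.87).

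Replicate numbers did not pair the libraries, since the deviations of 45 same-numbered pairs correlated at -0.41 to 0.28 (median -0.02). With the number as a block there were 268 higher and 96 lower calls, and 4 of 18 libraries correlated best with their own number. Low TPM values are limited by an unknown depth.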
